A study of Mus musculus with 2 samples.

Results

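The genes described here encode the acid machinery of the lysosome: the cathepsin proteases, the subunits of the V-ATPase proton pump and the Lamp membrane proteins. They were taken by name, as protein-coding genes of GENCODE M21 with a symbol of the form Cts plus 1 letter, a symbol that starts with Atp6v, or Lamp1 to Lamp5. Ctsg, a protease stored in neutrophil granules, was left out. The rule found 44 genes among 21474 protein-coding genes: 17 cathepsins, 23 Atp6v genes and 4 Lamp genes. One of them, Atp6v1fnb, is named as a neighbour of the subunit gene Atp6v1f and is kept apart from the subunits below.

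The lysosome is an acidic organelle in which proteins, lipids and sugars are broken down. The V-ATPase acidifies it: a cytosolic V1 sector hydrolyses ATP and a membrane V0 sector carries protons inward, and many of its subunits exist as paralogs used in different tissues. Cathepsins are made as inactive precursors and mature in acid, and the heavily glycosylated Lamp proteins line the organelle's membrane. In maturing red cells lysosomes take part in the removal of organelles, and in myeloid cells Ctsc (dipeptidyl peptidase 1) activates the granule serine proteases.

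The samples were 2 biological replicates of 1 group: primary megakaryocyte-erythroid progenitors (MEP), the marrow precursors of red cells and of platelet-forming megakaryocytes, from adult female C57BL/6J mice aged 5 weeks. The labels give each library its own biosample but name 1 donor identifier for both. The spread between replicates may therefore be partly technical, and the design holds no comparison between conditions. The sort is described as CD34 negative, with lineage markers and CD16/32 named in the same phrase. Libraries were paired-end and made from polyadenylated RNA, and their estimated counts summed to 79539457 in replicate 1 and 65305321 in replicate 2. Levels are given in TPM, which scale each transcript by its length and each library to the same sum, with the SD between the 2 libraries.

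The label was read against fixed marker lists. Of 14 erythroid markers 12 were detected, which here means a TPM of 1 or more in each library, and their summed TPM was 1590 in replicate 1 and 3019 in replicate 2. Of 12 megakaryocyte markers 9 were detected, with sums of 229 and 374, and the platelet collagen receptor gene Gp6 had no counts. Neutrophil markers were far more abundant, with 11 of 14 detected and sums of 32373 and 18751. Of these sums, 30661 and 16848 came from Mpo, Elane, Prtn3 and Ctsg. The other neutrophil markers were uneven, from Camp at 819 and 1035 TPM to Cxcr2 at 1.65 and 0.5 TPM and Ly6g at 2.81 and 0.12 TPM. Of 14 macrophage markers 7 were detected, with sums of 79.4 and 57.6. Lyz2 led them at 30.5 and 18.3 TPM, followed by Csf1r at 27.3 and 16.4 TPM, while Adgre1 (F4/80) and Mertk were below a TPM of 1. What part these cells have in the lysosomal levels was not tested, and in a bulk sample fewer cells of a type and less RNA per cell cannot be told apart.

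Promoters of these genes are shown first because lysosomal genes are known for a shared element in their start regions, the CLEAR element, which is bound by Tfeb and Tfe3 and is built around the E-box CACGTG. RefSeq promoter windows on GRCm38.p6, with 250 bases before and 50 after a start site, were available for 34 of the 44 genes by symbol. The E-box is a palindrome and so reads the same on both strands. It was found in 9 of these 34 genes (26.5%), against 8.09% of the 27025 genes with a window. Of the 16317 protein-coding genes with a window 9.24% held it, and of the 8023 of them detected in these libraries 12.4%. Of the 19 detected member genes with a window 8 held it, and of the 15 others 1, which was Ctsl. The full palindrome GTCACGTGAC was in none of the 34, in 0.37% of all genes and in 0.872% of the 8023 detected ones. The shorter form TCACGTGA was in 5 of the 34, in 1.12% of all and in 2.37% of the detected ones. The longer forms contain the E-box, so these counts overlap. In 2 other fixed lists, lysosomal hydrolases and lysosomal membrane proteins, the E-box was in 7 of 26 and 5 of 20 genes.

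The windows of the 4 genes with more than 1 E-box are given 5′ to 3′ on the strand of the gene, with each E-box in capitals. Lamp1 lies on the plus strand at chr8:13158911-13159210, Ctsa on the plus strand at chr2:164833523-164833822, Ctsd on the minus strand at chr7:142387778-142388077 and Atp6v0b on the minus strand at chr4:117887280-117887579.
Lamp1: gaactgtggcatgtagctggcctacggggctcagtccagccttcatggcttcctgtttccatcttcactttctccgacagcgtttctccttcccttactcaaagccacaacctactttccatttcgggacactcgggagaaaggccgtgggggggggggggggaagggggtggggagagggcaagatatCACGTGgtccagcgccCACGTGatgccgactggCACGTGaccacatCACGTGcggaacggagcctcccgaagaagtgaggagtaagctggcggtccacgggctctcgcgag
Ctsa: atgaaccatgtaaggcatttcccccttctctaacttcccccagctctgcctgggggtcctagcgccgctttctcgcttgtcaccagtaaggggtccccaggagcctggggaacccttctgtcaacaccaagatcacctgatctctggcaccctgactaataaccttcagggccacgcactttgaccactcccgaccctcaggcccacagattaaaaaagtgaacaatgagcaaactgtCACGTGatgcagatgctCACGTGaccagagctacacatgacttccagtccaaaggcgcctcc
Ctsd: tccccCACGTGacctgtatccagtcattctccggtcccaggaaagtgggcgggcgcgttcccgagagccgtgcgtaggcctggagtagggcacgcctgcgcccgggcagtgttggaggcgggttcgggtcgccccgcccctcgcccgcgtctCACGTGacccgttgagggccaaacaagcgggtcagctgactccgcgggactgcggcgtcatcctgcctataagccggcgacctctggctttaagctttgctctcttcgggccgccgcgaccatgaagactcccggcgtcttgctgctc
Atp6v0b: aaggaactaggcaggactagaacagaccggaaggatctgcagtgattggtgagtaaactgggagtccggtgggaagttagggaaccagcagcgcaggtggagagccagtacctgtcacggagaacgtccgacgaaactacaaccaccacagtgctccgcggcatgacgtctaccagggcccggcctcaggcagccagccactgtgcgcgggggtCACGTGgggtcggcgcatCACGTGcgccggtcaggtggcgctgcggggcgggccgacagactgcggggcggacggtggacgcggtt

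Lamp1 held 4 E-boxes, which began 61, 45, 28 and 15 bases before its start site. Those of Ctsa began 12 bases before the start site and at base 6 after it, and those of Atp6v0b 36 and 18 bases before it. In Ctsd they lay farther out, at 245 and 98 bases before the start site. The Ctsa and Ctsd windows belong to starts inside the GENCODE genes, not to their outermost ones. All 4 of these genes were among the 8 most abundant of the set. The other genes with an E-box were lower. Atp6v0d1 averaged 45.5 TPM, Atp6v0e 11.9, Ctsf 3.92, Atp6v1a 1.93 and Ctsl 1.13 TPM. The windows of Atp6v0c, the most abundant gene, and of Ctsz held no E-box. Whether level goes with the E-box was not tested. A match describes letters in a window and is not a bound site.

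**Figure D1:**
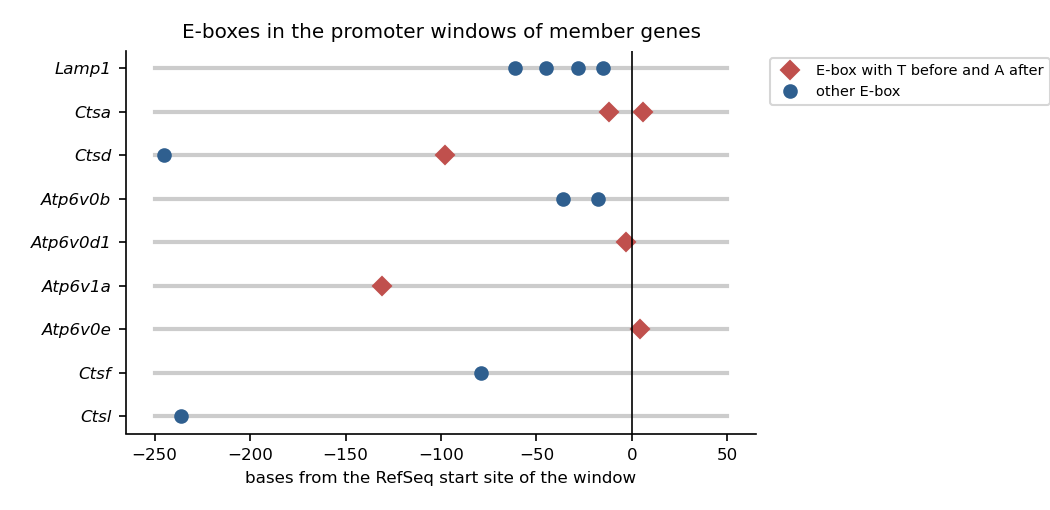
E-boxes in the promoter windows of the 9 genes that hold one, plotted by distance in bases from the RefSeq start site of the window; diamonds are E-boxes with T before and A after, circles the others, and the grey line is the 300-base window. Lamp1 has 4 E-boxes within 61 bases before its start site, and the single E-box of Ctsl lies 236 bases before its own.

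Of the 44 genes 27 (61.4%) were detected, against 46.9% of all protein-coding genes, and 8 averaged at least 100 TPM, against 6.81%. Their median was 10.9 TPM in replicate 1 and 9.68 TPM in replicate 2, against 0.67 and 0.75 TPM over all protein-coding genes. Among detected genes alone the medians were 25.6 and 16.4 TPM. The detected members ran over a range of 319.8-fold. Of the 17 others, 12 had no counts and 5 had counts but missed a TPM of 1 in at least 1 library. Estimated counts were whole, within 0.005, for 41 of the 44 genes, and fractional counts, which reads divided between genes leave, were found for Atp6v0c, Atp6v1g1 and Ctsd. In GENCODE M21, 21 of the 44 genes and 14 of the 27 detected ones overlap another gene, among them Lamp1 (Grtp1), Ctsa (Neurl2 and Pltp), Ctsz (Nelfcd) and Ctsb (Fdft1), each on the other strand. No source used here says whether the counting kept strands apart, so reads of such neighbours cannot be told apart from those of the member. The neighbour gene Atp6v1fnb was at 0.64 and 0.53 TPM.

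**Figure D2:**
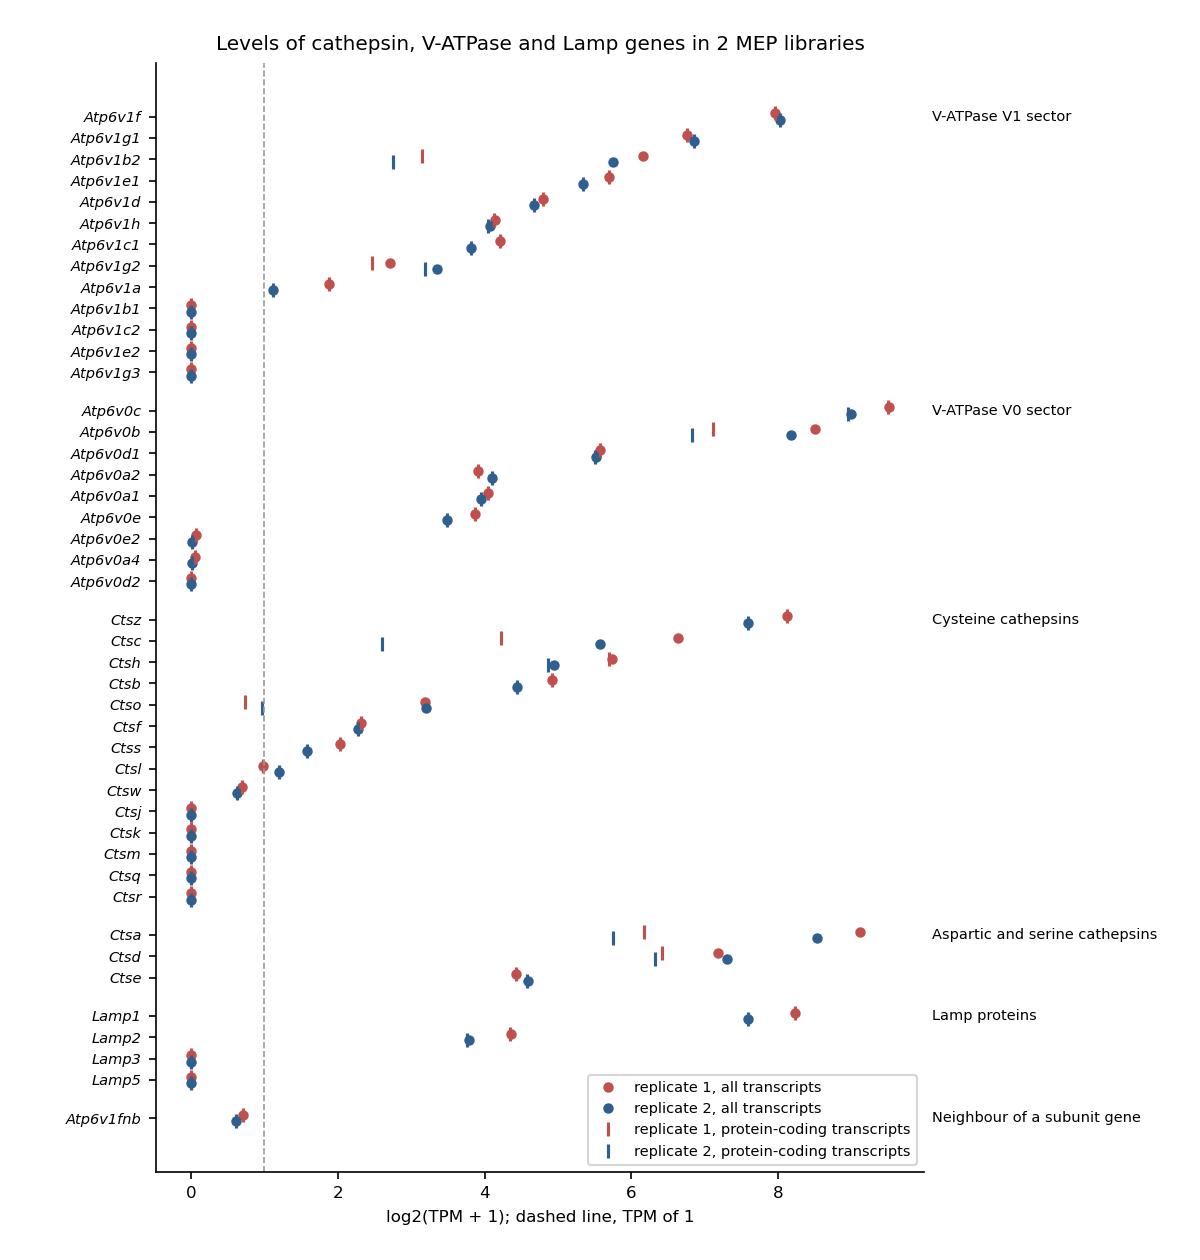
Levels of the 44 genes by role as log2(TPM + 1) in each library, with dots for all transcripts of a gene and ticks for its protein-coding transcripts; the dashed line marks a TPM of 1. Atp6v0c is highest, at 728 TPM in replicate 1 and 506 TPM in replicate 2, and in Ctsa, Ctsc, Atp6v1b2 and Atp6v0b the ticks stand well left of the dots.

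The membrane V0 sector held the most abundant gene of the set. Atp6v0c (ENSMUSG00000024121.9, chromosome 17, 24163866 to 24169702), the proteolipid that forms the rotating proton ring, was at 728 TPM in replicate 1 and 506 TPM in replicate 2, on 49994 and 27596 counts. Its relative in the ring, Atp6v0b (ENSMUSG00000033379.9, chromosome 4, 117884326 to 117887333), was at 359.7 and 288 TPM. The stalk subunit gene Atp6v0d1 was at 46.4 and 44.6 TPM. Both libraries put the ring subunits above the stalk and above the small subunit gene Atp6v0e, which was at 13.6 and 10.2 TPM. Of the 9 V0 genes 6 were detected, with a median over all 9 of 14.1 TPM in replicate 1 and 14.5 TPM in replicate 2.

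The a subunits, which anchor the pump to a given membrane, were present as several paralogs. Atp6v0a1 was at 15.5 TPM in replicate 1 and 14.5 TPM in replicate 2, and Atp6v0a2 at 14.1 and 16.2 TPM. Their order changed between the libraries, and their mean log2 ratio was -0.01 ± 0.21 (SD, n = 2). Tcirg1, the a3 subunit best known from osteoclasts, lies outside the name rule and was at 281 and 245 TPM over all its transcripts. Most of that level was on transcripts annotated as retained introns, which held 71.8% and 79.0% of its TPM. On protein-coding transcripts alone, Tcirg1 was at 19.2 and 14.3 TPM. The log2 ratio of Atp6v0a1 to Tcirg1 was -4.13 ± 0.07 over all transcripts and -0.15 over protein-coding ones, so the higher place of Tcirg1 depended on which transcripts were counted.

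Of the 13 V1 genes 9 were detected, and the highest of these, Atp6v1f, stood 92.3-fold above the lowest, Atp6v1a, in replicate 1 and 221-fold in replicate 2. Atp6v1f was at 248 TPM in replicate 1 and 259 TPM in replicate 2, followed by the peripheral stalk subunit gene Atp6v1g1 at 107 and 115 TPM. Atp6v1e1 was at 50.8 and 39.4 TPM, Atp6v1d, a subunit of the central stalk, at 26.8 and 24.4 TPM, and Atp6v1h and Atp6v1c1 at means of 16.3 ± 0.544 and 15.3 ± 3.12 TPM (SD, n = 2). The 2 genes of the catalytic ring stood apart from each other. Atp6v1b2 was at 70.1 and 53.0 TPM, while Atp6v1a (ENSMUSG00000052459.9, chromosome 16, 44085402 to 44139705), which carries the ATP-hydrolysing site, was the lowest detected V1 gene at 2.69 and 1.17 TPM. The level of Atp6v1a rested on 405 and 247 counts. Its transcripts were split differently in the libraries: the short transcript Atp6v1a-203 of 629 bases held 49.0% of its TPM in replicate 1 and 0% in replicate 2. Of the TPM of Atp6v1b2, 88.8% and 89.2% was on retained-intron transcripts, and on protein-coding transcripts it was at 7.84 and 5.71 TPM.

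Subunit paralogs known from other tissues were at or near 0. No counts were found for Atp6v1b1, Atp6v1c2, Atp6v1e2, Atp6v1g3 and Atp6v0d2, paralogs known from kidney, testis, osteoclasts and other specialised cells. A floor of 3 counts per library, which covers counting error only, puts the protein-coding transcripts of Atp6v1b2 at least 309-fold above Atp6v1b1 in replicate 1 and at least 179-fold in replicate 2. With the retained-intron transcripts of Atp6v1b2 included, these bounds were 2763-fold and 1664-fold. For Atp6v0d2 the upper ends of the authors' TPM intervals, 0.198 and 0.253 TPM, lay above that floor, and against them Atp6v0d1 was 234-fold and 176-fold higher. The upper ends for Atp6v1c2, 0.382 and 0.488 TPM, also lay above it, and against them Atp6v1c1 was 45.9-fold and 26.9-fold higher. The kidney paralog Atp6v0a4 had 8 and 2 counts and Atp6v0e2 had 6 and 1. The exception was Atp6v1g2, known from neurons, which was detected at 5.56 TPM in replicate 1 and 9.18 TPM in replicate 2. It stayed below Atp6v1g1 by a log2 ratio of -3.96 ± 0.44 (SD, n = 2). Atp6v1g2 overlaps Nfkbil1 on the other strand.

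Ctsa, Ctsz and Ctsd were the most abundant cathepsins over all transcripts. On protein-coding transcripts alone Ctsz, at 234 ± 60.2 TPM, stood above Ctsd at 81.5 ± 3.90 TPM and Ctsa at 62.0 ± 12.9 TPM (SD, n = 2). Ctsa (ENSMUSG00000017760.11, chromosome 2, 164832873 to 164841032), a serine carboxypeptidase that also protects lysosomal sialidase and galactosidase, was at 552 TPM in replicate 1 and 367 TPM in replicate 2. Ctsd, the major lysosomal aspartic protease, was at 144 and 157 TPM. Ctse, an aspartic protease found in red cells and in immune cells, was at 20.5 and 23.1 TPM, below Ctsd by a log2 ratio of -2.79 ± 0.03 over all transcripts and -1.91 ± 0.17 over protein-coding ones (SD, n = 2).

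Cysteine cathepsins spanned from Ctsz to no counts. Ctsz (cathepsin X), a carboxypeptidase, was at 276 TPM in replicate 1 and 191 TPM in replicate 2, all on 1 protein-coding transcript. Ctsc was at 98.1 and 46.6 TPM and the aminopeptidase gene Ctsh at 52.4 and 29.9 TPM. Ctsb, a broadly expressed endopeptidase, was at 29.3 and 20.8 TPM. Of these 14 genes 7 were detected, with a median of 1.83 TPM. Ctss, the protease of antigen-presenting cells, was at 3.07 and 2.00 TPM, and Ctsl, a widely expressed endopeptidase, at 0.97 and 1.29 TPM, either side of the detection threshold. Ctsk, the collagen-degrading protease of osteoclasts, had no counts. Ctso, a less studied member, was at 8.15 and 8.20 TPM. Ctsl stood below Ctsb by a log2 ratio of -4.45 ± 0.64 (SD, n = 2). Ctsf was at 4.00 and 3.84 TPM, and Ctsw, a protease of cytotoxic lymphocytes, at 0.62 and 0.54 TPM. The rodent placental cathepsins Ctsj, Ctsm, Ctsq and Ctsr, which lie together on chromosome 13, had no counts.

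Lamp1 carried most of the Lamp level. Lamp1 (ENSMUSG00000031447.6, chromosome 8, 13159161 to 13175338) was at 298 TPM in replicate 1 and 192 TPM in replicate 2, and Lamp2 (chromosome X, 38401357 to 38456454) at 19.5 and 12.8 TPM. Lamp2 was lower by a log2 ratio of -3.92 ± 0.02 (SD, n = 2), which was almost the same in both libraries, and their order also held in counts not corrected for length (-4.11). Of the TPM of Lamp2, 89.1% and 84.6% was on Lamp2-201 and 9.71% and 13.9% on Lamp2-202. The dendritic cell gene Lamp3 and the brain gene Lamp5 had no counts. Cd68, a related macrophage glycoprotein outside the rule, was at 37.1 and 27.9 TPM.

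Over the 23 pairs of paralogs or related genes that were compared, 20 were more than 2-fold apart on the mean, in the same direction in both libraries and with separate TPM intervals in each. Of the 20, 8 set a gene with no counts against a detected one. The 3 that did not pass were Atp6v0a1 with Atp6v0a2, Atp6v0b with Atp6v0c (log2 ratio -0.91 ± 0.15) and Ctsc with Ctsh (0.77 ± 0.18; SD, n = 2). These intervals cover quantification within a library, and with 2 libraries no test between genes was made. The share of arbitrary gene pairs that would pass was not computed, and the pairs were chosen with earlier results of these data known. The count therefore describes these pairs only.

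Part of the level of several genes lay on short transcripts annotated as retained introns. Of the 24 genes that averaged at least 5 TPM, 16 had several annotated transcripts. Retained introns held over 50% of the TPM in both libraries for 4 of the 16 (25.0%), against 9.52% of 5809 protein-coding genes at that level. They were Ctsa, Ctsc, Atp6v0b and Atp6v1b2. For Ctsa the 436-base transcript Ctsa-212 held 85.8% of the gene's TPM in replicate 1 and 83.3% in replicate 2, but 41.3% and 35.0% of its counts. The gap between these shares follows from length scaling, since each read on a short transcript weighs more in TPM. For Ctsc, Ctsc-204 held 82.1% and 89.2% of TPM and 69.2% and 71.0% of counts, and for Atp6v0b, Atp6v0b-204 held 61.8% and 60.8% of TPM and 50.8% and 50.2% of counts.

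On protein-coding transcripts alone these genes stood lower. Ctsa was then at 71.2 TPM in replicate 1 and 52.9 TPM in replicate 2, Ctsc at 17.6 and 5.05 TPM, and Atp6v0b at 137 and 112 TPM. Ctsh, in which protein-coding transcripts held 96.6% and 94.2% of TPM, then stood above Ctsc, with a mean log2 ratio of Ctsc to Ctsh of -2.0. This order also rested on a short transcript, since the 631-base Ctsh-204 held 86.0% and 84.6% of the TPM of Ctsh. The longer Ctsh-201 (1617 bases) was at 5.56 and 2.61 TPM, and Ctsc-201 (2493 bases) at 2.80 and 2.29 TPM. Ctsd was divided in another way, since 41.5% and 49.8% of its TPM was on a transcript that GENCODE M21 assigns to the overlapping gene Gm49369. For Ctso, the transcript Ctso-202, annotated as non-coding, held 78.0% and 81.6%. The same transcript held over 50% of the TPM in both libraries for 14 of the 16 genes, against 75.5% of the 5809; Atp6v1b2 and Atp6v1h were the others.

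**Figure D3:**
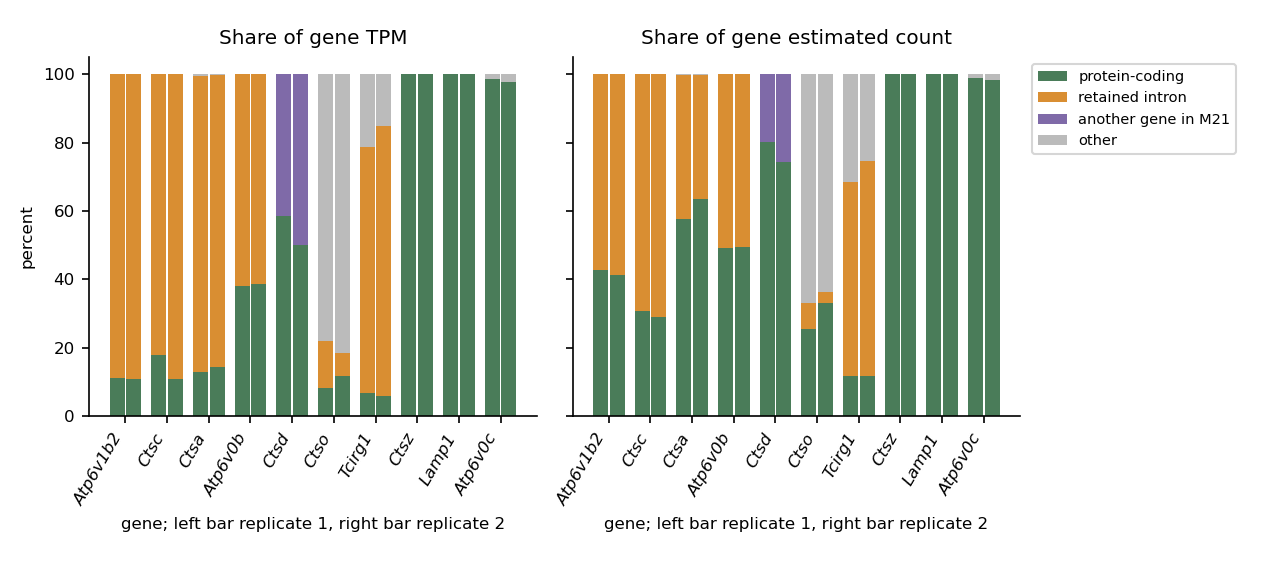
Share of each gene's TPM (left) and of its estimated count (right) by transcript class, in percent, with replicate 1 as the left bar and replicate 2 as the right bar of each gene. Retained introns hold 88.8% and 89.2% of the TPM of Atp6v1b2 but 57.4% and 58.6% of its counts, whereas Ctsz and Lamp1 are protein-coding throughout.

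Levels were higher at higher GC content of the mRNA, in the set as over all detected genes. Over the 27 detected members, Spearman's rho between the GC content of the most abundant protein-coding transcript and mean TPM was 0.35, and over 10034 detected protein-coding genes it was 0.34. These are correlations across genes of the same libraries, which are not independent replicates, and they are given as a description. When detected genes were divided by GC into 5 bins of equal size, the lowest bin ended at 46.1% and had a median of 7.28 TPM, and the highest began at 57.2% and had a median of 40.5 TPM. The lowest bin held 6 members: Atp6v1a (44.6% GC), Lamp2 (42.5%), Ctss (45.9%), Ctso (41.8%), Atp6v1c1 (45.2%) and Atp6v1d (42.5%), of which Atp6v1d was highest at 25.6 TPM. Ctsz (57.3%) lay in the highest bin and Atp6v0c (56.0%) below it. Atp6v1g2 went against this order, with the highest GC content of the detected members (59.5%) and a mean of 7.37 TPM. The part of GC content in the order of the subunits was not tested.

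**Figure D4:**
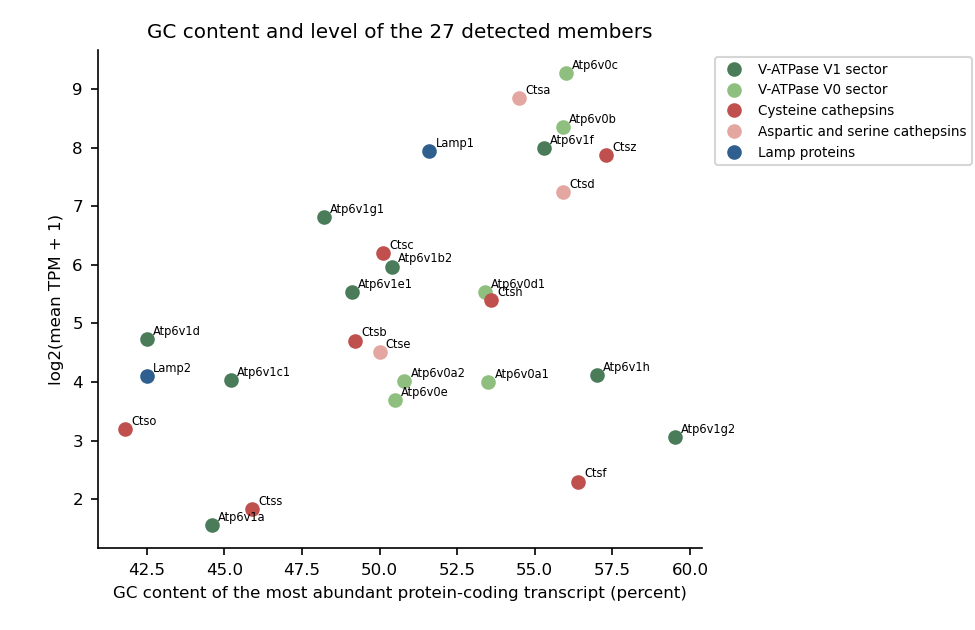
GC content of the most abundant protein-coding transcript, in percent, against log2(mean TPM + 1) for the 27 detected members, coloured by role. Atp6v1a, at 44.6% GC, is the lowest of them on the level axis near Ctss, and Atp6v0c, at 56.0% GC, the highest.

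Replicate 1 was higher than replicate 2 for most members. Of the 30 members that passed the count filter, 24 were higher in replicate 1 (80.0%), against 50.9% of 12402 protein-coding genes. The median log2 difference, replicate 1 over replicate 2 on scaled counts, was 0.39, against 0.01 over those genes. The direction was not particular to the set. Of the other lysosomal hydrolases 30 of 33 were higher in replicate 1 (median 0.29), and of the other lysosomal membrane proteins 20 of 26 (0.28). Of the partners of the pump outside the name rule it was 12 of 14 (0.44). Among the 24 members that averaged at least 5 TPM, Ctsc alone was more than 2-fold apart, at 2.15-fold on 3809 and 1516 counts. Of 7652 protein-coding genes at that level 1.40% were more than 2-fold apart, 1.05% being higher in replicate 1 and 0.353% in replicate 2. Next among these 24 were Ctsh (1.86-fold higher in replicate 1), Atp6v1g2 (1.70-fold higher in replicate 2), Lamp1 (1.66-fold higher in replicate 1) and Lamp2 (1.56-fold higher in replicate 1).

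By role, the median log2 difference was 0.40 over the 12 cathepsins that passed the filter and 0.29 over the 16 Atp6v genes, and whether these differ was not tested. Atp6v0c and Ctsz were both at 0.63, while Atp6v1f was at 0.05, Ctsd at 0.09 and Atp6v1g1 at 0.00. Neutrophil markers moved with the members, with a median of 0.80 and 12 of 13 higher in replicate 1. Mpo, Elane and Prtn3, whose products are stored in the azurophil granule, were at 0.74, 1.10 and 1.14. Camp, Ngp and S100a9, which are also abundant neutrophil markers, were at -0.23, 0.04 and 0.03. The less abundant Retnlg, Mmp9, Mmp8 and Cxcr2 had the largest differences of the list, at 2.62, 2.24, 1.96 and 1.81. Ctsg, Ltf and S100a8 were at 0.80, 0.37 and 0.30. Lymphoid markers had a median of 0.84, with 3 of 4 higher in replicate 1. Macrophage markers had a median of 0.03, with 5 of 10 higher in replicate 1, and were split. Lyz2, Csf1r and Cd14 were at 0.84, 0.83 and 1.36, and C1qa, C1qb and C1qc at -0.53, -0.19 and -0.56. Megakaryocyte markers moved the other way, at -0.66, with all 9 that passed higher in replicate 2, and erythroid markers at -0.22. The part of these cells in the difference was not tested, and since 1 library stands against 1, the difference has no replicate check.

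**Figure D5:**
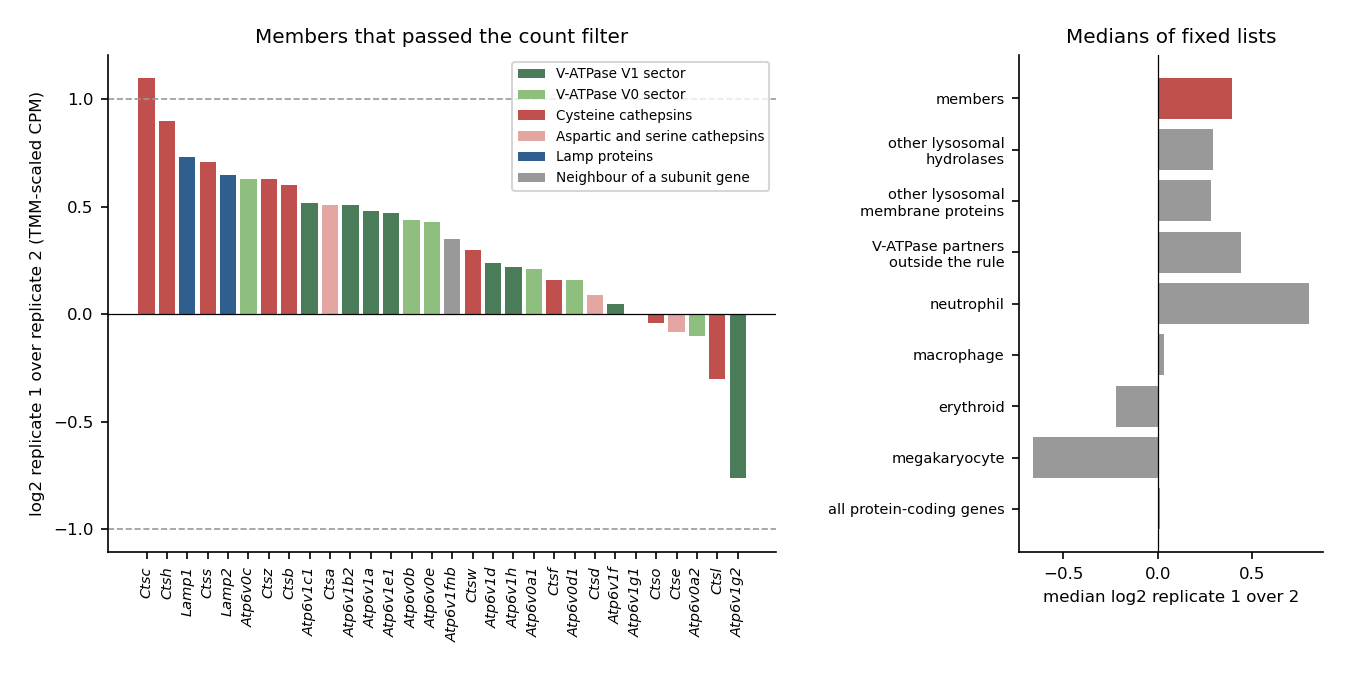
Left, log2 of replicate 1 over replicate 2 on TMM-scaled CPM for the 30 members that passed the count filter, coloured by role, with dashed lines at 2-fold. Right, the median of the same value for fixed gene lists; Ctsc reaches 1.10 on the left, and on the right the members lie at 0.39, neutrophil markers at 0.80 and megakaryocyte markers at -0.66.

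Partners of the pump outside the name rule were mostly present. Of 15 such genes 13 were detected, with a median of 6.29 TPM. Rnasek, a small V0 partner, was at 188 TPM in replicate 1 and 134 TPM in replicate 2, and Rogdi, a relative of a yeast pump assembly factor, at 106 and 78.2 TPM. The accessory subunit genes Atp6ap1 and Atp6ap2 were lower, at 18.1 ± 3.48 and 4.09 ± 0.219 TPM (SD, n = 2). Atp6ap1l had no counts and Dmxl1 was at a mean of 0.655 ± 0.134 TPM.

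Other genes of the lysosome also covered a wide range, but more of them were detected than the 61.4% of the members. Of 33 other hydrolases 32 were detected, with medians of 16.8 TPM in replicate 1 and 10.9 TPM in replicate 2, led by Gaa (acid glucosidase) at 145 ± 5.59 TPM and Hexa (a hexosaminidase subunit) at 127 ± 42.8 TPM. Lgmn, the asparagine endopeptidase that processes cathepsins, was lowest at 0.96 ± 0.0424 TPM (SD, n = 2). Of 26 other membrane proteins 24 were detected, with Laptm5, a blood cell protein, at 989.7 ± 140.1 TPM and the calcium channel gene Mcoln1 at 257 ± 8.92 TPM. Psap, the precursor of the saposins, was at 276 ± 56.5 TPM. In receptor sorting, M6pr was at 24.4 ± 3.88 TPM and Igf2r, the other mannose 6-phosphate receptor, at 1.10 ± 0.269 TPM.

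Inhibitors and regulators of the set were uneven. Cst3 (cystatin C), a secreted inhibitor of cysteine cathepsins, was at 1117 TPM in replicate 1 and 973 TPM in replicate 2, above every cathepsin of the set in each library. On protein-coding transcripts Cst3 was at 238 and 209 TPM, below Ctsz in replicate 1 and above it in replicate 2. The cytosolic inhibitor gene Cstb was at 45.0 and 37.7 TPM. Of the 10 inhibitors 3 were detected, and Csta1, Stfa1, Stfa2l1 and BC100530 had no counts. Among factors that bind E-boxes, Usf2 was at 236 ± 7.76 TPM, Tfeb at 56.0 ± 11.4 TPM, Tfe3 at 37.7 ± 2.72 TPM, and Mitf at 1.22 ± 0.141 TPM (SD, n = 2). The Ragulator genes Lamtor4, Lamtor2 and Lamtor1, whose products tether nutrient signalling to the lysosome, were at 186 ± 32.7, 136 ± 18.9 and 111 ± 19.2 TPM, and Rragd was at 0.035 ± 0.0212 TPM.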

How the data were processed

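Libraries of polyadenylated RNA were quantified on mm10, per the labels, with GENCODE M4, per a deposited text note. No source used here names the aligner, the quantification program or the strand setting. Per the file headers, each library has gene and transcript tables with an expected count, TPM, FPKM and the authors' TPM intervals, whose level is not stated, and transcript tables add the deposited percent of gene TPM held by a transcript. The bounds of these intervals are deposited as a TPM signal, that is, values on the TPM scale.

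Of 43346 gene identifiers 42462 matched GENCODE M21 (GRCm38) without version and 884 did not. Transcript classes are those of M21, and a transcript that M21 gives to another gene was not counted as protein-coding for the first. Expected counts were rounded and scaled by TMM in edgeR 4.0.16 (R 4.3.3; factors 0.98 and 1.02), filtered with filterByExpr and given as log2 CPM (prior count 2). Size factors of DESeq2 1.42.0 were an alternative. Ratios used a pseudocount of 0.01 TPM, and genes called more than 2-fold apart between libraries needed a mean TPM of 5. Other steps used Python 3.11.15, numpy 2.4.6, pandas 2.3.3 and scipy 1.17.1.

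The members, lists and pairs were chosen with earlier results of these data known; the split by protein-coding transcripts and the GC content were added after seeing the data. The rule for names outside the members takes the 4 highest and 2 lowest of each pathway list, those more than 2-fold apart and pair genes, and only a part of them is printed; it does not cover the cell type markers. Others, namely M6pr, Atp6ap1, Atp6ap2 and Tfe3, were named after their values were seen, as were the markers printed singly. Promoter windows are from RefSeq, and 32 of the 39 windows of members matched a GENCODE transcript start over 20 bases. No test between conditions was possible with 1 group.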

Additional observations from a re-analysis of the deposited data

How the results depend on the processing

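No paired analysis was possible because there is 1 group. The number of detected members ran from 26 to 30, being 24 at a TPM of 5, and that of called pairs from 20 to 21, under the alternatives of unit, pseudocount, interval condition and transcript class. The median level of the members was 8.26 in FPKM, 25.6 TPM over detected members and 6.54 TPM on protein-coding transcripts. Leaving out 1 library gave medians of 9.68 to 10.9 TPM. On protein-coding transcripts 6 members were at 100 TPM or more, against 8. At a fold of 1.5, 8 members were apart between libraries in place of 1. The matching shares of all protein-coding genes were not computed at this fold or for 100 TPM on protein-coding transcripts. These counts therefore describe the members only. The median difference between libraries was 0.33 on library totals and for the mean, 0.22 on log2(TPM + 1) and 0.19 without a count filter. Of the promoters, 0 held the CLEAR palindrome and 5 the form with T before and A after.

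On protein-coding transcripts Ctsc over Ctsh reversed to -2.0, and the calls of Atp6v0a1 and Atp6v0a2 against Tcirg1 were lost at -0.15 and -0.14. Atp6v0b was below Atp6v0c by more than 2-fold in replicate 1 alone (-1.02), in counts not corrected for length (-1.67) and on protein-coding transcripts (-2.27). Ctsd over Ctsb lost its call at 0.88 in counts not corrected for length. The cause was not tested, beyond the transcript classes and lengths that these settings change. The interval condition could not be applied to protein-coding sums or to CPM. No library could be left out of a difference between the 2. Depth limits Atp6v0a4 and Atp6v0e2, which rest on 8 counts or fewer.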
